A study of Mus musculus with 6 samples.

Results

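The genes described here encode 8 proteins that move water and ions during the secretion of saliva, namely the water channels Aqp1, Aqp3 and Aqp5, the basolateral transporters and channel Slc12a2, Atp1b1 and Kcnn4, and the chloride channels Ano1 and Cftr. They were taken by gene symbol from the count files, and all 8 had a row among the 23260 genes listed. All 8 also passed edgeR's filter on low counts, which kept 13610 genes. The libraries were 3′ mRNA libraries of submandibular glands from ICR mouse embryos at embryonic day 14 (E14 eSMGs). Up to 10 glands, each holding epithelium and the surrounding mesenchyme, were collected in a tube after 6 h of culture, and the medium either held no inhibitor (control) or held AMD3100, which blocks the chemokine receptor CXCR4, at 50 µM. Each group held 3 tubes, whose libraries are called replicates 1, 2 and 3. Nothing in the labels says whether the tubes came from separate litters. The paper describes its results in general as coming from independent experiments in triplicate, and does not name litters. The p-values therefore measure only the spread between these samples, which may be technical. The comparison addresses the effect of CXCR4 inhibition on the glands, and here on the genes with which they will later secrete.

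In a secretory acinus, fluid follows salt. The sodium pump, whose beta subunit is Atp1b1, drives sodium out of the cell, and NKCC1 (Slc12a2) uses the resulting gradient to bring chloride in across the basolateral membrane. Calcium released by muscarinic signalling opens the apical chloride channel TMEM16A (Ano1) and the basolateral potassium channel KCa3.1 (Kcnn4), and water follows chloride through aquaporin 5 in the apical membrane. Cftr carries chloride and bicarbonate in ducts, Aqp3 is a basolateral channel for water and glycerol in many epithelia, and Aqp1 is best known from endothelium and red cells. Acini mature late in gland development, so E14 eSMGs are branching epithelia that do not yet secrete.

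By the RefSeq annotation of GRCm38.p6 (mm10), the genes lay at chr6:55336299-55348555 (Aqp1, plus strand), chr4:41092724-41098183 (Aqp3, minus strand), chr15:99591028-99594829 (Aqp5, plus strand), chr7:144588549-144752026 (Ano1, minus strand), chr1:164437099-164458355 (Atp1b1, minus strand), chr6:18170687-18322770 (Cftr, plus strand) and chr7:24369826-24385212 (Kcnn4, plus strand). Slc12a2 lay on chromosome 18. Reads of a 3′ library come from the last exon, which holds the 3′ UTR. For the check of shared reads, 11 reads simulated from the last 300 bases of each gene were aligned back to the mouse genome, and 9 of the 11 Aqp3 reads (81.8%) also matched a second place, on chromosome 5, where the annotation had no gene. Reads counted for Aqp3 were therefore uncertain in number, and its values below carry that limit. None of the simulated reads of the other 7 genes had a second place.

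The depth of the 6 libraries, as the sum of counts over genes, lay between 9051595 and 14393031. Levels are given as CPM after TMM normalization, that is, counts scaled to the effective size of a library, as mean ± SD with n = 3 per group. A 3′ library counts transcript ends, so that a level was not divided by transcript length. The floor was taken as 3 counts, which stood at between 0.173 CPM in AMD3100 replicate 1 and 0.368 CPM in AMD3100 replicate 3, and it covers counting error only, since copies made by PCR are not independent molecules.

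The glands' identity was read from marker genes. All 16 epithelial and all 10 mesenchymal markers passed the filter. The epithelial markers summed to 2410, 2397 and 1566 CPM in control replicates 1, 2 and 3 and to 2865, 2510 and 3567 CPM in AMD3100 replicates 1, 2 and 3, with Krt15, a keratin of basal epithelial cells, at the top (1299 CPM over all libraries). The sums of the AMD3100-treated eSMGs stood above those of all controls, with 2472 CPM of Krt15 in the highest of them. The other 15 markers summed to 1368, 1385 and 678 CPM in control and to 1499, 1494 and 1095 CPM with AMD3100. Without Krt15 the groups thus overlapped, through the low AMD3100 replicate 3, while the AMD3100 library was the higher for each replicate number. Of the 16 markers, 10 had a log2 fold change above 0 and 6 below, with a median of 0.18. Krt7 alone was called, at an unadjusted p-value under 0.05 (edgeR) with a fold change over 1.5, where 1.68% of all genes tested were called. Mesenchymal markers, led by the collagen gene Col3a1, summed to 4463, 4386 and 2144 CPM in control and to 4436, 4435 and 1851 CPM in AMD3100-treated eSMGs.

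Both replicate 3 libraries stood apart from the other 4. Their first principal component scores were 84.8 and 80.8, against scores between -78.7 and -17.4 for the others, and that component held 38.2% of the variance. The 10 skeletal muscle markers summed to 1562 CPM in control replicate 3 and 2024 CPM in AMD3100 replicate 3, while the other 4 libraries held between 170.0 and 294 CPM. Myog, the myogenic transcription factor and the most abundant of these markers, was at 520.6 and 485 CPM in the replicate 3 libraries and at between 9.96 and 41.1 CPM elsewhere. Of the epithelial markers, 10 of 16 were lower in both replicate 3 libraries than in all 4 others, among them Epcam, Krt14 and Sox10. The same was true of 21.2% of all genes tested. In bulk RNA, fewer cells of a type and less RNA per cell cannot be told apart.

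**Figure D1:**
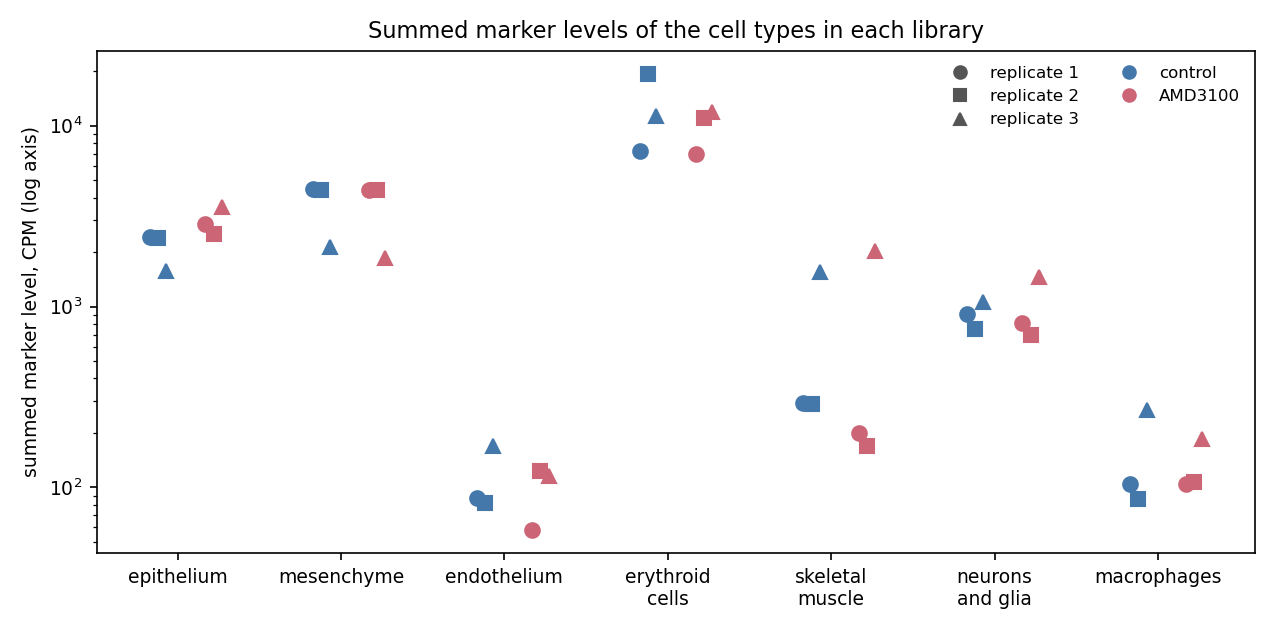
Summed levels (CPM, log axis) of the marker lists of 7 cell types in each library, with colour for the group and symbol for the replicate. The triangles of replicate 3 lie above the other libraries for skeletal muscle, for nerve and glia and for macrophages, and below them for mesenchyme. The AMD3100 sums lie above the control sums for epithelium, where Krt15 makes up 2472 of the 3567 CPM of the highest sum.

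The 8 genes spanned most of the ranks by mean level among the genes tested, but none was among the most abundant genes. Over all 6 libraries, Atp1b1 had the highest level (83.8 ± 32.2 CPM), followed by Slc12a2 (74.9 ± 18.6 CPM) and Kcnn4 (41.2 ± 17.5 CPM). Then came Aqp1 (10.1 ± 6.19 CPM), Ano1 (8.0 ± 4.61 CPM), Cftr (7.16 ± 4.11 CPM), Aqp3 (4.24 ± 1.85 CPM) and Aqp5 (0.928 ± 0.915 CPM). Among the 13610 genes tested, Atp1b1, Slc12a2 and Kcnn4 ranked 1788, 2057 and 3610 by mean level, Aqp1, Ano1 and Cftr 8215, 8938 and 9254, Aqp3 10622 and Aqp5 13396. Atp1b1 was above Slc12a2 in 4 of 6 libraries, and the order of these neighbours did not go beyond their spread. Kcnn4 was below Slc12a2 and above Aqp1 in 6 of 6 libraries, and only from Aqp1 was it separated with no overlap of the ranges. Aqp1, Ano1 and Cftr could not be ordered, since Aqp1 was above Ano1 in 2 of 6 libraries and Ano1 above Cftr in 3 of 6. Aqp3 was above Aqp5 in 6 of 6 libraries, with ranges that did not overlap.

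Values at or near 0 counts were found for 2 of the genes. Aqp5 had 0 counts in control replicates 1 and 2, and Aqp1 had 3 counts in AMD3100 replicate 2. These were the 3 of 48 values at or under the floor. With a floor of 10 counts, 4 of 48 values were at or under it, the fourth being the 9 counts of Aqp5 in AMD3100 replicate 1.

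**Figure D2:**
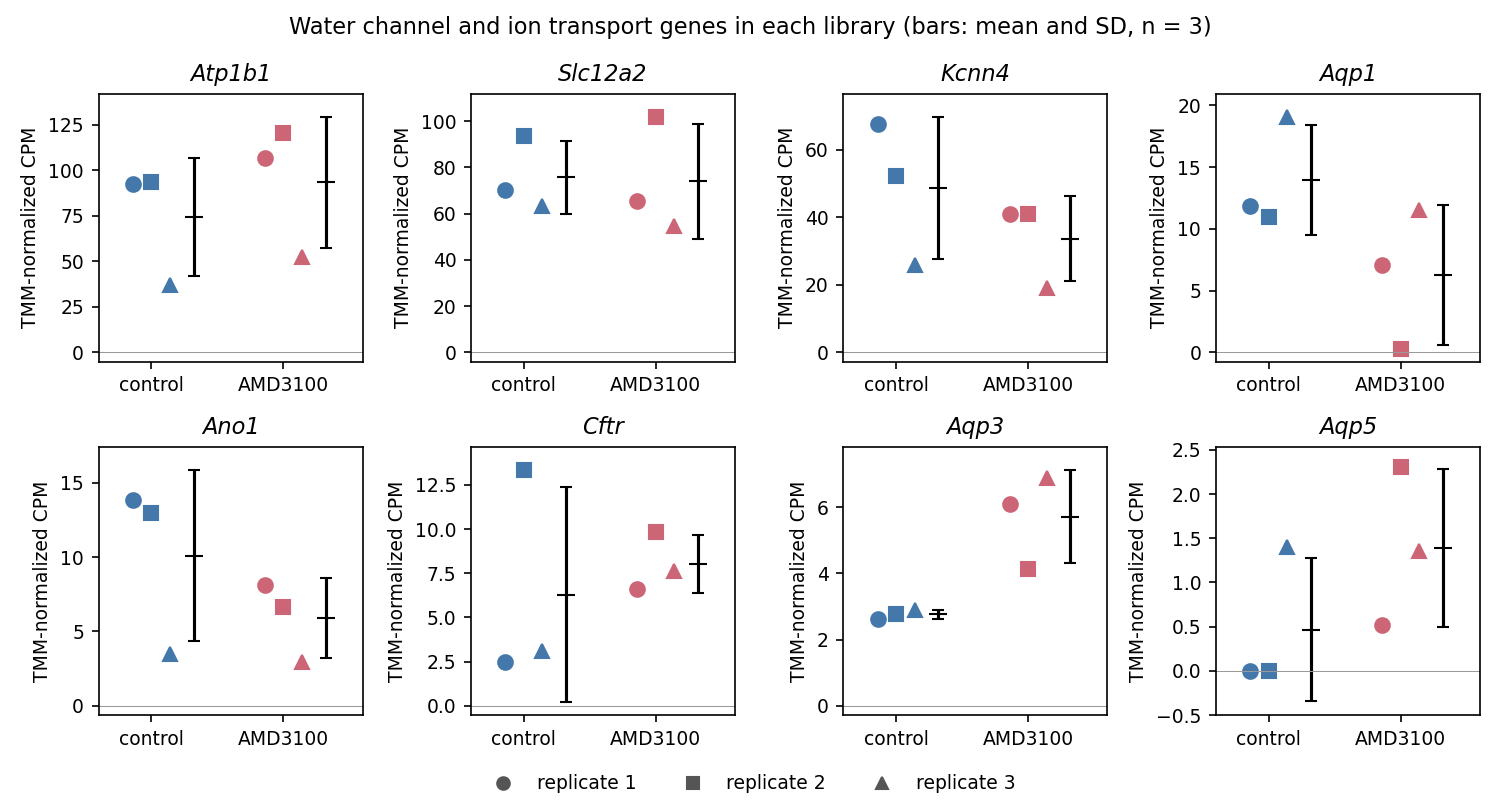
TMM-normalized CPM of each of the 8 genes in the 3 control and 3 AMD3100 libraries, ordered by mean level, with symbols for the replicate and bars for the mean and SD (n = 3). The AMD3100 points lie above all control points for Aqp3 alone, and the replicate 3 triangles are the lowest of their group for Atp1b1, Slc12a2, Kcnn4 and Ano1.

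None of the 8 genes passed the thresholds for differential expression between AMD3100-treated and control eSMGs. In edgeR's quasi-likelihood test, 0 of 8 had an unadjusted p-value under 0.05 with a fold change over 1.5, where 1.68% of all genes tested passed both (54 higher and 174 lower with AMD3100). The unadjusted p-values of the 8 genes lay between 0.140 and 0.920, and after Benjamini-Hochberg adjustment over all genes each was 1. By adjusted p-value, 0% of all genes were called, with 228 genes at an unadjusted p under 0.05, and DESeq2 called 5. With replicate number as a block, 0 of 8 passed both thresholds, where 598 genes (4.39%) did. The log2 fold changes were above 0 for 4 genes and below 0 for 4, with a median of 0.15, and the median over all genes tested was 0.02.

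**Figure D3:**
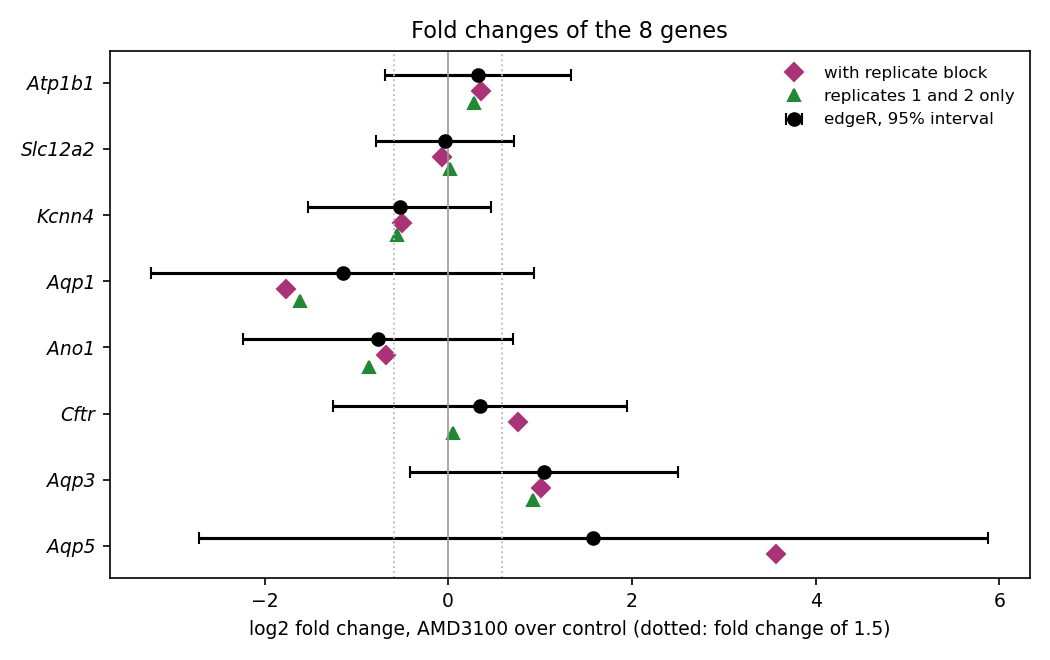
Log2 fold changes of the 8 genes, AMD3100 over control, from edgeR with their 95% intervals (black), with replicate number as a block (diamonds) and from replicates 1 and 2 only (triangles, not fitted for Aqp5). All 8 black intervals cross 0, and that of Aqp5 is the widest, from -2.72 to 5.88.

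Of the basolateral genes, Slc12a2, the cotransporter that loads the cell with chloride, had nearly equal means in both groups. It stood at 70.4, 93.6 and 63.2 CPM in control replicates 1, 2 and 3 and at 65.5, 102 and 54.65 CPM in AMD3100 replicates 1, 2 and 3. The highest library of both groups was replicate 2 and the lowest replicate 3, and the groups overlapped. Its means were 75.7 ± 15.9 and 74.0 ± 24.7 CPM. Its log2 fold change, -0.03 (95% interval -0.78 to 0.72, edgeR; exact permutation test, p = 0.9), was near 0, and its sign turned without control replicate 2, AMD3100 replicate 1 or AMD3100 replicate 3. The interval spans fold changes from 0.581 to 1.64.

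Atp1b1, the beta subunit that carries the sodium pump to the plasma membrane, was at 92.5, 93.7 and 37.1 CPM in control and at 107, 120.4 and 52.6 CPM in AMD3100-treated eSMGs. Replicate 3 was the lowest library of both groups, and within each replicate number the AMD3100 library was the higher. edgeR gave a log2 fold change of 0.32 ± 0.45 (standard error; exact permutation test, p = 0.5). With the replicate block it was 0.35 ± 0.16, with an unadjusted p-value under 0.05 and an adjusted p = 0.746 (edgeR), and the fold change was under 1.5. Without control replicate 3 it was 0.0027. Per epithelial marker count, the log2 difference of Atp1b1 was -0.14 (exact permutation test, p = 0.8), and it was 0.05 with Krt15 left out of the markers. Over the 6 libraries, Atp1b1 had a correlation of 0.957 with the summed epithelial markers without Krt15.

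Kcnn4, the potassium channel opened by calcium, was at 67.6, 52.3 and 25.9 CPM in control and at 40.9, 41.1 and 19.2 CPM in AMD3100-treated eSMGs. The groups overlapped through the low control replicate 3, while the AMD3100 library was the lower for each of the 3 replicate numbers. Its log2 fold change was -0.53 ± 0.44 (edgeR, standard error; exact permutation test, p = 0.4). With the replicate block it was -0.51 ± 0.20, with an unadjusted p-value under 0.05 and an adjusted p = 0.722 (edgeR), short of a 1.5-fold difference. Replicates 1 and 2 alone gave -0.55 ± 0.25, and with single libraries left out it lay between -0.83 (without control replicate 3) and -0.22 (without control replicate 1), with -0.26 without AMD3100 replicate 3. Per epithelial marker count, the log2 difference of Kcnn4 was -1.0 (exact permutation test, p = 0.1). That divisor was itself higher in all AMD3100 libraries than in all controls. The share of all genes tested that reach this p-value on this scale was not computed.

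Of the chloride channels, Ano1, the channel that calcium opens in the apical membrane, was at 13.8, 13.0 and 3.49 CPM in control and at 8.12, 6.64 and 2.95 CPM in AMD3100-treated eSMGs. As with Kcnn4, the AMD3100 library was the lower for each replicate number, and the groups overlapped because control replicate 3 was low. The means were 10.1 ± 5.74 and 5.90 ± 2.66 CPM, and the log2 fold change was -0.77 ± 0.65 (edgeR, standard error; exact permutation test, p = 0.5). The replicate block gave -0.67 ± 0.46, and replicates 1 and 2 alone gave -0.86 ± 0.54. With single libraries left out it lay between -1.17 (without control replicate 3) and -0.46 (without AMD3100 replicate 3), with -0.48 without control replicate 1.

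Cftr, the chloride and bicarbonate channel, was at 2.45, 13.3 and 3.09 CPM in control and at 6.62, 9.86 and 7.61 CPM in AMD3100-treated eSMGs. These levels came from 28, 183 and 31 counts in control and 115, 107 and 62 counts with AMD3100. Control replicate 2 was the highest library of all and the other 2 controls were the lowest, so that the spread of the control group (6.29 ± 6.10 CPM) exceeded the difference of the means. From edgeR it was 0.35 ± 0.71 on the log2 scale (standard error; exact permutation test, p = 0.4). A single library decided its size, since the log2 fold change was 1.53 without control replicate 2 and -0.04 without control replicate 1.

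Of the water channels, Aqp5, the apical channel of mature acini, had the lowest level of the 8 genes. It had 0, 0 and 14 counts in control replicates 1, 2 and 3 and 9, 25 and 11 counts in AMD3100 replicates 1, 2 and 3, which correspond to 0, 0 and 1.40 CPM and to 0.518, 2.30 and 1.35 CPM. All 3 AMD3100 libraries were above the floor and 1 of 3 controls was. The means were 0.465 ± 0.806 and 1.39 ± 0.894 CPM, and the groups overlapped. The difference could not be estimated closely, with a log2 fold change of 1.58 ± 1.89 (edgeR, standard error; exact permutation test, p = 0.3). With the replicate block it was 3.57 ± 2.81, and it was 0.98 without control replicate 1 or 2, 0.9994 without AMD3100 replicate 2 and 2.71 per epithelial marker count. Within replicate 3, where both libraries held counts, the levels were nearly equal, with a difference of -0.04 in log2 (CPM + 0.25). Without control replicate 3 both remaining controls were at 0 counts, and the gene then passed both thresholds (edgeR, adjusted p = 0.997). A fold change fitted against 0 counts is no bound on the difference.

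Aqp3, the channel for water and glycerol, was the only gene of the 8 whose groups did not overlap, where 7.44% of all genes tested had groups that did not overlap. It was at 2.63, 2.77 and 2.89 CPM in control and at 6.11, 4.15 and 6.88 CPM in AMD3100-treated eSMGs, from between 29 and 106 counts per library. The controls spanned a narrow range, with a coefficient of variation of 4.81%, against 24.6% in AMD3100-treated eSMGs. edgeR's log2 fold change was 1.04 ± 0.64 (standard error), and the exact two-sided permutation test gave p = 0.1, the smallest that 3 against 3 libraries can give. Aqp3 passed both thresholds with quantile normalization and limma (log2 fold change 1.03 ± 0.33, adjusted p = 1). The summed epithelial markers were higher in the same 3 libraries, and over the 6 libraries Aqp3 had a correlation with that sum of 0.758. This relation rested on Krt15, since the correlation with the sum of the other 15 markers was 0.202, and 10 of the 16 markers were at their lowest in the replicate 3 libraries. Divided by the summed count of all 16 markers, a divisor led by Krt15, the log2 difference of Aqp3 was 0.50 (exact permutation test, p = 0.2), and divided by that of the other 15 it was 0.70 (exact permutation test, p = 0.3). The part of epithelial content and of the shared reads in this difference was not tested.

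Aqp1, the water channel of endothelium and red cells, was at 11.8, 11 and 19.1 CPM in control and at 7.09, 0.277 and 11.5 CPM in AMD3100-treated eSMGs. The lowest value rested on 3 counts in AMD3100 replicate 2, against 94 to 191 counts in the other libraries. The AMD3100 library was the lower for each replicate number, and the groups overlapped through AMD3100 replicate 3. The means were 14.0 ± 4.43 and 6.30 ± 5.67 CPM, and the log2 fold change was -1.15 ± 0.92 (edgeR, standard error; exact permutation test, p = 0.2). Without AMD3100 replicate 2 it was -0.58, and with the replicate block -1.76 ± 0.79 (edgeR, adjusted p = 0.748).

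Markers of the cells that carry Aqp1 were set beside this low library. The 8 endothelial markers summed to 86.8, 81.7 and 169 CPM in control and to 57.8, 124 and 116 CPM in AMD3100 replicates 1, 2 and 3, with Egfl7 the most abundant. In AMD3100 replicate 2, Cdh5 was at 0 counts, as was Tek, which missed the filter and was also at 0 in control replicate 1, while Kdr (26.6 CPM) and Pecam1 (15.9 CPM) were at their highest of the 6 libraries. Globin and other erythroid markers, led by Hba-a1, summed to 11020 CPM in that library, within the range of 7013 to 19430 CPM over all libraries. The summed levels of endothelial and erythroid markers in AMD3100 replicate 2 were thus not the lowest of the 6 libraries. Cdh5 itself had between 4 and 49 counts in the other 5 libraries. The part of endothelial and erythroid cells in the level of Aqp1 was not tested.

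Differences within replicate numbers were of 1 sign for 5 of the 8 genes. The AMD3100 library was the higher in all 3 pairs for 15.7% of all genes tested and the lower for 14.6%. For Aqp3 and Atp1b1 the AMD3100 library was the higher in 3 of 3 pairs, by 0.54 to 1.18 and by 0.21 to 0.50 in log2 (CPM + 0.25). For Aqp1, Ano1 and Kcnn4 it was the lower in 3 of 3 pairs, by log2 differences of -4.42 to -0.71, -0.94 to -0.23 and -0.72 to -0.35. Slc12a2, Cftr and Aqp5 had pairs on both sides of 0.

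**Figure D4:**
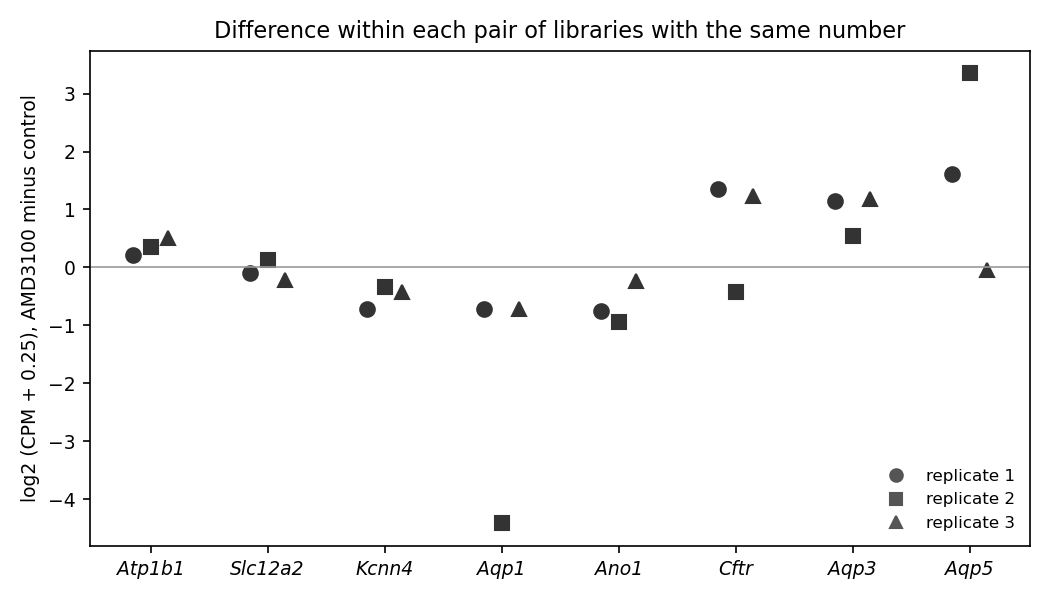
Difference in log2 (CPM + 0.25) between the AMD3100 and the control library of the same replicate number for each of the 8 genes, with 1 symbol per replicate. All 3 symbols lie above 0 for Atp1b1 and Aqp3 and below 0 for Kcnn4, Aqp1 and Ano1, and Aqp1 of replicate 2 lies farthest from 0 at -4.42.

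The replicate 3 libraries of both groups were the lowest for 4 of the genes. Slc12a2, Ano1, Atp1b1 and Kcnn4 were lower in both replicate 3 libraries than in all 4 others (4 of 8, against the 21.2% of all genes tested given above). In control and AMD3100-treated eSMGs, the replicate 3 library held 26.0% and 39.9% of the mean of the other 2 for Ano1, and 39.8% and 46.3% for Atp1b1. For Kcnn4 these shares were 43.3% and 46.7%, and for Slc12a2 77.1% and 65.3%. Aqp1 went the other way, with 167% and 314%, the latter being 163% of AMD3100 replicate 1 when the library with 3 counts is left out, and Aqp3 stood at 107% and 134%. The summed skeletal muscle, nerve and glia, and macrophage markers were high and most epithelial markers low in these 2 libraries. The part of these differences in the members' levels was not tested.

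Ano1 and Kcnn4 had the most similar profiles among the 8 genes, with a Pearson correlation of 0.975 over the 6 libraries on the log2 scale. Ano1 and Aqp5 had the most opposed (-0.831). Of all genes tested, those most like Kcnn4 were Krt17 (0.996), A530072M11Rik (0.995) and Tnfrsf10b (0.994), and those most like Atp1b1 were Ttc28 (0.999), Rab10 (0.997) and Xpr1 (0.995). Slc12a2 was most like Ipo11 (0.998), Sema4a (0.995) and Snx25 (0.995), and Ano1 most like Abcg4 (0.999), Zcchc10 (0.994) and Tceb3 (0.993). Among the water channels, Aqp3 was most like Lrrc1 (0.995), Tpcn2 (0.980) and Smagp (0.975), Aqp1 most like Mb21d1 (0.996), Dok1 (0.995) and Txndc9 (0.994), and Aqp5 most like Cradd (0.995), Akr1cl (0.993) and C9 (0.993). Cftr was most like Nrm (0.982), Cd38 (0.982) and Epn3 (0.973). These are the highest values among all genes tested, over only 6 libraries that share a replicate structure, and they are given as a description. The correlations of Aqp5, also that with Ano1, include 0 counts in control replicates 1 and 2 and 9 counts in AMD3100 replicate 1. Those of Aqp1 include the 3 counts in AMD3100 replicate 2.

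Most of the rest of the aquaporin family was at or near 0 counts. Of 9 other aquaporins, 5 had at most 3 counts in every library, 3 of them (Aqp2, Aqp6 and Aqp12) at 0 in all, and only Mip and Aqp11 passed the filter. Mip was at 2.64 ± 2.55 CPM in control and 4.45 ± 2.0 CPM in AMD3100-treated eSMGs, and Aqp11 at 1.86 ± 0.585 and 2.05 ± 1.84 CPM. Gm17292 lies over the 3′ end of Mip on the opposite strand. In mean level Aqp3 was above both of them and Aqp5 below both, with overlapping ranges, and 0 of 2 passed the thresholds.

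Around Atp1b1, 10 of 13 sodium pump subunits and FXYD regulators were tested, of which 0 were called higher and 1 lower, where 1.68% of all genes tested were called. Their median log2 fold change was 0.19. The alternative beta subunit Atp1b3 (78.0 ± 18.1 and 89.8 ± 12.3 CPM) was near the level of Atp1b1. Fxyd2, the gamma subunit that modulates the pump, fell by 0.93 on the log2 scale (standard error 0.40, edgeR, adjusted p = 1). It was at 34.9, 25.9 and 17.8 CPM in control and at 12.8, 10.1 and 18.2 CPM with AMD3100, so that the replicate 3 libraries were level while the other pairs were lower with AMD3100.

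Around Ano1 and Cftr, 16 of 21 chloride and bicarbonate transporters and channels were tested, of which 0 were called higher and 1 lower (1.68% of all genes), with a median log2 fold change of -0.22. Over all libraries, Ano6, the scramblase and channel related to Ano1, had the highest mean (55.4 ± 15.9 and 36.3 ± 8.47 CPM), with Clcn3 next. In AMD3100-treated eSMGs alone, Clcn3 (45.8 CPM), Ano10 (39.5 CPM) and Lrrc8a (37.6 CPM) had higher means than Ano6. The gene called lower was Clcn2, a basolateral chloride channel, which had 24, 62 and 53 counts in control and 4, 7 and 7 counts in AMD3100-treated eSMGs. Its groups did not overlap, and it fell by 2.78 on the log2 scale (standard error 1.07, edgeR, adjusted p = 1). Fam131a lies over its 3′ end on the opposite strand, and whether reads were counted by strand is not given in the sources used here. With the replicate block, which called 4.39% of all genes tested, Slc12a4, a potassium and chloride cotransporter, was called higher (log2 fold change 0.85, edgeR, adjusted p = 0.521) and Ano6 lower (-0.59, edgeR, adjusted p = 0.703). Both had missed the thresholds without it, and Gm16156 lies over the 3′ end of Slc12a4 on the opposite strand.

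The potassium and sodium channels and exchangers beside Kcnn4, the calcium pathway and the kinases of NKCC1 held no called gene. The share called over all genes tested was 1.68%, and lists this short can hold none at that share. Of the cation channels and exchangers, 8 of 16 were tested, with a median log2 fold change of 0.35, and the scaffold protein gene Slc9a3r1 was at 7.96 ± 5.403 and 9.86 ± 4.43 CPM. Of the genes of calcium signalling and secretion receptors, 14 of 19 were tested, with a median of 0.28. The calcium pumps Atp2b1 (226 ± 31.4 and 267 ± 77.4 CPM) and Atp2a2 (167 ± 56.5 and 124 ± 30.7 CPM) led this list, while the muscarinic receptors had lower levels, with Chrm3 at 3.38 ± 1.39 and 4.27 ± 1.75 CPM and Chrm1 at 1.71 ± 1.06 and 3.16 ± 1.05 CPM. All 10 kinases and volume regulators of NKCC1 were tested, with a median of -0.05, led by Wnk1 (160 ± 6.39 and 195 ± 43.8 CPM) and Nedd4l.

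Products of mature acinar cells were scarce, like Aqp5. Of 17 such genes, 16 had a row, 5 were at 0 in every library (among them the secretory genes Bpifa2 and Pip) and 7 were tested, of which 0 passed the thresholds. Their median log2 fold change was -0.50. Dcpp1 and Dcpp3, members of a gene family with near-identical copies whose counts are uncertain, had the highest levels (8.49 and 6.96 CPM over all libraries).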

How the data were processed

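The authors deposited 1 file of raw read counts per gene symbol for each of the 6 libraries (3 control and 3 AMD3100-treated). The submitters' processing notes name Bowtie2, edgeR and mm10 without versions. The counting tool, the annotation and the strand setting are not given in the sources used here, and no molecular identifiers are mentioned. Reads were 50 bp single reads from the 3′ end. A file held 23282 lines. A symbol occurred more than once on 44 of them, and 22 identical repeats were left out.

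All genes were fitted together in edgeR 4.0.16 (R 4.3.3) with TMM normalization, filterByExpr on group, glmQLFit, glmQLFTest and Benjamini-Hochberg adjustment. A gene was called at an unadjusted p-value under 0.05 with a fold change over 1.5, thresholds named in the study's text, which elsewhere also names a stricter fold change. The methods of the study used quantile normalization and a t-test with equal variance. That normalization was kept as an alternative, with limma 3.58.1 in place of the study's test. The other alternatives were DESeq2 1.42.0, upper quartile scaling, a minimum of 10 counts in each library, no filter, Rn45s left out, plain CPM, a replicate block, replicates 1 and 2 only, and each library left out. The level per epithelial marker count, with and without Krt15, was added after seeing the data.

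Replicate numbers are shared by the labels of both groups. Deviations from the group means of same-numbered libraries correlated at 0.185, 0.171 and 0.584 for replicates 1, 2 and 3. Control replicate 2 and AMD3100 replicate 1 correlated at 0.198, and control replicate 1 and AMD3100 replicate 2 at 0.146. These values set replicate 3 apart, but they do not tell which of replicates 1 and 2 belong together. The numbers were still taken to pair the libraries, for replicates 1 and 2 by the labels alone.

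The 8 genes and all lists were chosen with earlier results of these data known, and no list was tested as a set. The genes named were the 8, the 2 most abundant of each list, those called or with groups that did not overlap, and the 3 genes most correlated with each of the 8. A few genes that this rule names are not reported here. Other genes are named as examples chosen after their values were seen. Shared reads were checked with minimap2 2.31-r1302 on NCBIM37 with GENCODE vM1 (178 of 185 listed genes matched), which is not the build of the counts. The fits were tested on simulated data.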

Additional observations from a re-analysis of the deposited data

How the results depend on the processing

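None of the 8 genes had an adjusted p-value under 0.05 under any alternative across all genes in which it was fitted. With edgeR, 228 genes passed both thresholds and 0 had an adjusted p-value under 0.05. The first count was 479 with DESeq2, 467 with quantile normalization and limma, 598 with the replicate block and 613 with replicates 1 and 2 only, and the second was 5 with DESeq2 and 3 with the replicate block. With each library left out, between 163 (without AMD3100 replicate 1) and 547 (without control replicate 3) genes passed both thresholds, with 451 without AMD3100 replicate 3. Of the 8 genes, the number past both thresholds was 1 with quantile normalization (Aqp3), and between 0 and 1 with each library left out (Aqp5, without control replicate 3). The replicate block changed no call among them. With each library left out, Slc12a2 ranged from -0.33 to 0.15, its sign turning in 3 of 6 fits (without control replicate 2, AMD3100 replicate 1 or AMD3100 replicate 3), and Cftr from -0.0381 to 1.53, its sign turning without control replicate 1 alone. The sign of Slc12a2 also turned with replicates 1 and 2 only (0.0182), and that of Atp1b1 per epithelial marker count (-0.14). On the latter scale, Slc12a2 moved to -0.57, Aqp3 to 0.50 (exact permutation test, p = 0.2), and Kcnn4 to -1.0 and Aqp1 to -2.69 (p = 0.1 each, the smallest possible). The divisor of that scale was itself higher in all AMD3100 libraries than in all controls, and all genes tested were not compared on it. With Krt15 left out of the markers, Kcnn4 was at -0.81 (p = 0.1), Aqp1 at -2.50 (p = 0.3), Aqp3 at 0.70 (p = 0.3) and Atp1b1 at 0.05 by the exact permutation test. The cause of these changes was not tested. Aqp5 was not fitted in replicates 1 and 2 only, where it missed the filter. Few counts limit Aqp5 and the value of Aqp1 in AMD3100 replicate 2. That library was not the shallowest, but it had the fewest genes with a count (13761, against 14208 to 16345 in the others).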

Other observations

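Among the marker lists used to describe the glands, 5 of 70 tested genes had groups that did not overlap, a share near the 7.44% of all genes tested, and 2 of these 5 were called (1.68% of all genes). Krt7, a keratin of simple and ductal epithelium, rose with AMD3100, from 9.81, 10.5 and 8.58 CPM in control to 29.2, 19.5 and 13.1 CPM (log2 fold change 1.1, standard error 0.41, edgeR, adjusted p = 1), and 36.4% of its simulated 3′ reads had a second place in the genome. Fabp7, a fatty acid binding protein of glia, fell from 12.1, 16.9 and 47.2 CPM to 5.53, 5.44 and 10.7 CPM (log2 fold change -1.82, standard error 0.58, edgeR, adjusted p = 1). Cdh1, the epithelial cadherin, was at 337, 302 and 211 CPM in control and at 344, 394 and 507 CPM in AMD3100-treated eSMGs, with groups that did not overlap and a log2 fold change of 0.55 that missed the thresholds. Osr1, a mesenchymal transcription factor, and C1qb, a complement gene of macrophages, were the other two, with log2 fold changes of -0.23 and -0.22. Of the muscle markers, Actc1 reached 262 and 411 CPM in the replicate 3 libraries and 66.7 to 130.3 CPM elsewhere. The nerve and glia markers, led by Prph and Tubb3, summed to 1060 CPM in control replicate 3 and 1458 CPM in AMD3100 replicate 3. The other libraries held between 697 and 909 CPM of them. The macrophage markers, led by C1qa and Csf1r, summed to 268 CPM in control replicate 3 and 185 CPM in AMD3100 replicate 3. The other libraries held between 86.3 and 107 CPM of them.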
